A study of Homo sapiens with 3 samples.

Results

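The loci described here are those of 5 genes that encode regulators of transcription or chromatin, GATAD2B, TAF3, ESRRG, ZNF90 and TMF1. They were picked by name from the 82 genes that the authors' list of specific DKK-1 binding sites gives for 83 of its 200 sites. Each gene had 1 specific site. For each gene, the site was described along with every peak of both peak lists that overlapped the listed transcript or the 100 kb on either side of it. This gave 5 windows with a summed length of 1.976 Mb, in which 12 separate peaks had been called, 5 of them the specific sites.

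The data came from chromatin immunoprecipitation sequencing (ChIP-seq) of DLD-1, a human colorectal adenocarcinoma cell line with no DKK-1 of its own, and the comparison asked where on the genome ectopic DKK-1 was enriched. There were 3 libraries, 1 per group and without replicates: immunoprecipitates from DLD-1/Mock and from DLD-1/DKK-1, and pooled input DNA. DLD-1/DKK-1 cells had been transduced with a doxycycline-inducible lentivirus that encodes V5-tagged DKK-1 and GFP, and DLD-1/Mock cells with the vector without DKK-1. Both were transduced populations of 1 cell line, and the labels do not say which cells gave the input pool. The antibody is given as anti-V5 in the labels of both immunoprecipitates and as anti-DKK-1 in the study's Methods, and the conflict could not be resolved from these sources. After removal of duplicates the libraries held 21312041 (DLD-1/DKK-1), 24151009 (DLD-1/Mock) and 27723787 (input) tags, a tag being 1 uniquely aligned 40 bp read. Positions are in hg18, counted from 1.

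The 5 genes act at different steps of transcription. GATAD2B (also called p66-beta) is a subunit of the nucleosome remodelling and deacetylase complex NuRD, which is best known for repressing genes. TAF3 is a subunit of TFIID, the complex that recognises promoters and starts assembly of the polymerase machinery, and it reads a histone mark of active promoters through a PHD finger. ESRRG is an orphan nuclear receptor that controls genes of oxidative metabolism. ZNF90 belongs to the large family of KRAB zinc finger proteins, whose members bind DNA and mostly silence it. TMF1 was named for binding to a TATA element. It also resides at the Golgi apparatus and has been described as a coactivator of the androgen receptor.

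The peak caller MACS had compared the DLD-1/DKK-1 library with DLD-1/Mock and with input separately, which gave lists of 6631 and 5281 peaks. The DLD-1/DKK-1 tags are common to both lists, so a peak found in both is not a repeated observation. Of the peaks against DLD-1/Mock 48.1% were also in the list against input, of those against input 60.4% were also in the other list, and 6.27% of the 3189 peaks in both were specific sites. The specific sites are those of the peaks in both lists whose fold enrichment reached 10 in each list. Their presence in both lists and their fold enrichment are therefore fixed by that choice. Fold enrichment is the number of tags at the highest point of the peak (the summit) divided by the number expected from the background. The score expresses the P value that MACS assigned as its negative log10 times 10. Neither a difference between the controls nor one between loci could be tested, since no group had a second library.

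The 5 specific sites were modest peaks of 12 to 19 tags. The TAF3 site held 19 tags (95% Poisson interval 11.44 to 29.67), the GATAD2B and TMF1 sites 18 each (10.67 to 28.45), the ZNF90 site 16 (9.15 to 25.98) and the ESRRG site 12 (6.20 to 20.96). All of these intervals overlap and cover counting error only, so the tag counts do not rank the loci. The median was 17 tags over the 200 specific sites and 16 over the peaks of each full list. By tags, the members stood between place 28 (TAF3) and place 80 (ESRRG) of the 83 sites with a gene. Place 80 was the last, shared by 4 sites, and 12 tags was the lowest count in both full lists.

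**Figure D1:**
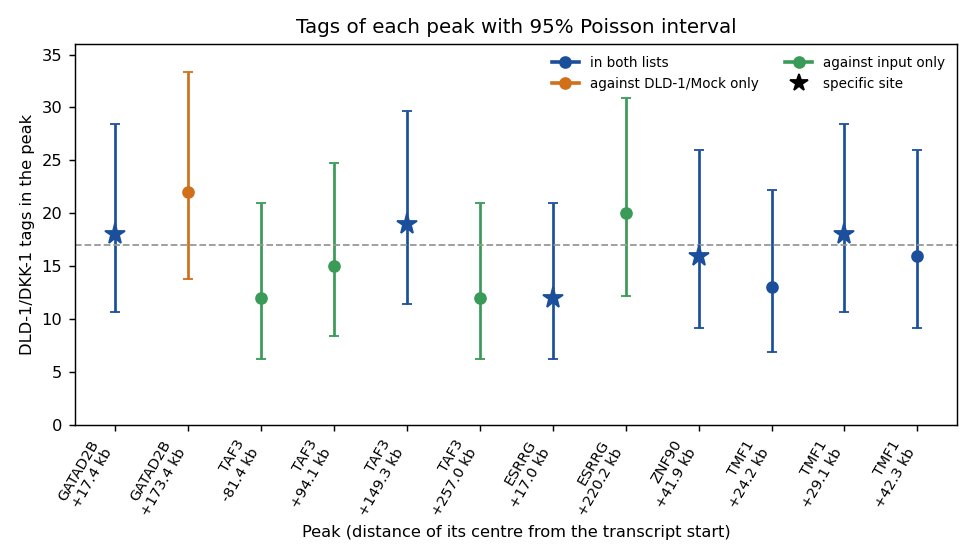
Number of DLD-1/DKK-1 tags (vertical axis) in each of the 12 peaks of the 5 windows, with the 95% Poisson interval as error bar; the labels give the gene and the distance of the peak's centre from the transcript start, stars mark specific sites, colours the list or lists that hold the peak, and the dashed line the median of the 200 specific sites (17 tags). The counts run from 12 to 22 and all intervals overlap, also between specific sites and the other peaks.

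Their widths ran from 283 bp (ESRRG) through 413 bp (TMF1), 414 bp (ZNF90) and 447 bp (GATAD2B) to 618 bp (TAF3), around a median of 452.5 bp for all specific sites. The widest member was also the least dense. The TAF3 site had 3.07 tags per 100 bp, against 3.87 at ZNF90, 4.03 at GATAD2B, 4.24 at ESRRG and 4.36 at TMF1. A region as wide as these sites would hold 2.23 (ESRRG) to 4.88 (TAF3) tags at the genome-wide mean, so that the sites carried 3.90 (TAF3) to 5.52 (TMF1) times that number. Over all 200 specific sites this ratio had a median of 4.79 and ranged from 3.39 to 8.82.

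Fold enrichment took few values. At GATAD2B it was 11.82 against both controls, which equals a summit of 14 tags over a genome-wide background of 1.184 tags per 150 bp fragment. At ESRRG and ZNF90 it was 10.14 against both, or 12 tags over the same background. This is the lowest value that a whole number of tags over that background gives above the threshold of 10, since 11 tags give 9.29. An identical fold enrichment against both controls, as at these 3 loci, was present at 47.0% of the sites with a gene. The same share, 47.0%, had the genome-wide background in both lists. That background was computed here from the DLD-1/DKK-1 tags, so identical values over it do not show that the controls were alike at a site.

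The TAF3 and TMF1 sites were the members whose value depended on the control, and they did so in opposite directions. The TAF3 site had 11.82 with input as control, again the value of 14 tags over the genome-wide background, but 10.27 with DLD-1/Mock. With 14 tags at the summit, 10.27 corresponds to an expected background of 1.363 tags around this site in DLD-1/Mock. The TMF1 site had 11.82 with DLD-1/Mock as control and 11.45 with input, or an expected background of 1.223 tags in input. The ratio of the expected background with DLD-1/Mock as control to that with input was thus 1.15 at TAF3 and 0.969 at TMF1. Over the sites with a gene it ranged from 0.789 to 1.23. The input value at TAF3 and the DLD-1/Mock value at TMF1 were the genome-wide background, not one local to that control. These ratios therefore do not compare the local backgrounds of both controls.

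**Figure D2:**
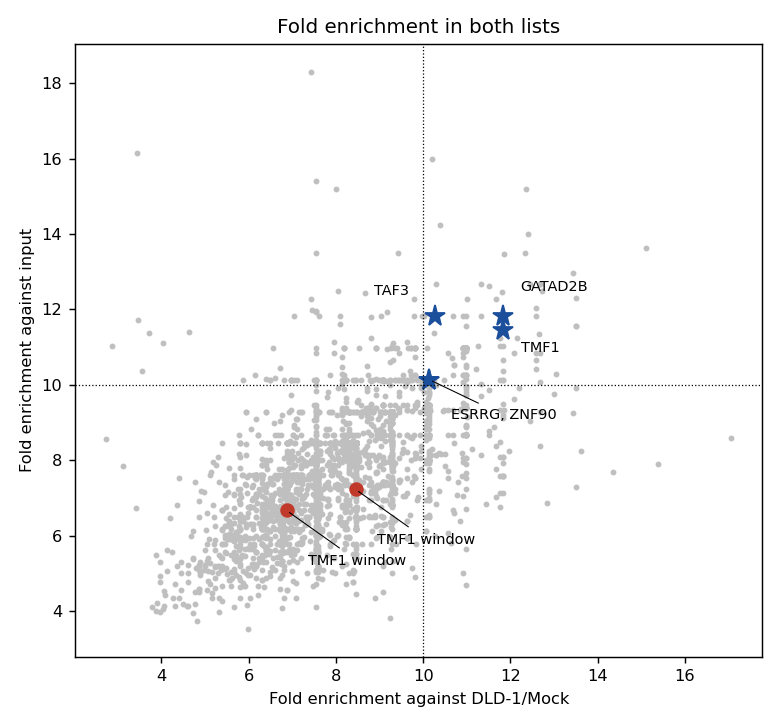
Fold enrichment against DLD-1/Mock (horizontal axis) and against input (vertical axis) of the 3189 peaks in both lists (grey), with the 5 specific sites as stars, the other peaks of the TMF1 window that are in both lists as red circles, and dotted lines at the threshold of 10. ESRRG and ZNF90 coincide at 10.14 just above the threshold, GATAD2B and TMF1 lie at 11.82 against DLD-1/Mock, and TAF3 at 10.27 on the horizontal and 11.82 on the vertical axis.

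Among the members, TMF1 and GATAD2B had the highest scores in both lists. TMF1 scored 86.73 with DLD-1/Mock as control and 84.54 with input, and 6.62% and 6.49% of the peaks of these lists scored as high or higher. GATAD2B scored 81.3 against both controls, a value reached by 9.18% and 7.97% of the peaks. ZNF90 followed with 71.42 against both (18.4% and 15.7%). The last places changed with the control. TAF3 scored 57.03 against DLD-1/Mock and 66.27 against input, and ESRRG 58.76 against both. At TAF3, 52.68% of all peaks against DLD-1/Mock scored at least as high. The sites were chosen for a fold enrichment of at least 10 in each list, so their places among all peaks are not independent of it. Among the 83 sites with a gene, TMF1 was at place 17 by score against DLD-1/Mock and 16 against input. GATAD2B was at 26 and 20, ZNF90 at 42 and 39, ESRRG at 68 and 68, and TAF3 at 75 and 47. The false discovery rate (FDR) that MACS obtained by exchanging ChIP and control was between 34.4% (TMF1) and 47.32% (TAF3) against DLD-1/Mock, and between 76.81% (ESRRG) and 100% (GATAD2B, ZNF90 and TMF1) against input, with 99.06% at TAF3. No peak of these lists had a low FDR, the lowest being 33.17% (median 47.07%) against DLD-1/Mock and 65.44% (median 74.0%) against input. Against input, all members lay above that median. GATAD2B, ZNF90 and TMF1, at 100%, were the members with the highest scores. Over the 200 specific sites the median FDR against input was 98.975%.

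The GATAD2B site lay on chromosome 1 from 152144452 to 152144898. The listed transcript, NM_020699, is on the minus strand from 152043827 to 152162074 with 11 exons. The site was in intron 1. Its centre lay 17399 bp into the transcript, and 16934 bp separated its edge from the nearest exon. A further peak in the window was called only against DLD-1/Mock, 54918 bp beyond the 3′ end of the transcript (151988404 to 151988908). It held 22 tags (13.79 to 33.31), more than any other peak in the 5 windows, but at a fold enrichment of 5.25, the lowest of the 12 peaks. Tags are counted over the whole peak, whereas fold enrichment refers to its summit. No value against input is listed for this peak.

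The TAF3 site lay on chromosome 10 from 8049702 to 8050319, in intron 3 of NM_031923, a transcript of 7 exons on the plus strand from 7900679 to 8096719. Its centre was 149331 bp into the transcript, at 76.2% of the transcript length, and 1991 bp separated it from the nearest exon. TAF3 had 3 further peaks, all called against input only. One was inside the transcript, in intron 2 (7994559 to 7995016), with 15 tags (8.40 to 24.74) and a fold enrichment of 7.88. One was 81268 bp upstream of the transcript start (7819113 to 7819410), with 12 tags and 10.14. The last was 60798 bp beyond the 3′ end (8157518 to 8157829), with 12 tags and 8.67. The upstream peak reached the threshold of 10 against input, as 9.60% of the peaks of that list did, but was not called against DLD-1/Mock and so was not a specific site. Its tags, fold enrichment and score of 58.76 against input were identical to those of the ESRRG site. In the current RefSeq order of protein-coding genes (GRCh38.p14) TAF3 lies between ATP5F1C and GATA3, but the flanking peaks were not assigned to either gene, since no hg18 annotation of them was used here.

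The ESRRG site lay on chromosome 1 from 215312440 to 215312722, in intron 1 of NM_206594, a transcript of 9 exons on the minus strand that spans 586388 bp (214743211 to 215329598). Its centre was 17017 bp into the transcript, or at 2.9% of the transcript length. RefSeq now holds 20 curated coding transcripts of ESRRG, so this distance applies to the listed transcript only. The site was the weakest of the members by tags. Among the 200 specific sites 7, itself included, had the same tags, fold enrichment and score in both lists. A second peak inside the transcript (215109002 to 215109703), in intron 2 and 3859 bp from the nearest exon, was called only against input. It held 20 tags (12.22 to 30.89) at a fold enrichment of 9.29, the value of 11 tags over the genome-wide background, and so fell just short of the threshold that the site itself narrowly passed. ESRRG had the longest window of the members (786.4 kb) and the fewest peaks per Mb against either control (1.27 against DLD-1/Mock, 2.54 against input).

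The ZNF90 site lay on chromosome 19 from 20091492 to 20091905. The listed transcript, NM_007138, is on the plus strand from 20049803 to 20092976 with 4 exons. The authors' list calls the position an intron. By the coordinates in the same list, however, all 414 bp of the site lay within exon 4, the last exon, and in the 3′ UTR. The site began 324 bp and had its summit 481 bp after the last coding base. No other peak was called in the ZNF90 window in either list, which made ZNF90 the only member without a further peak. This was not particular to ZNF90. Of the windows of all 82 genes, 31 had a single peak against DLD-1/Mock and 30 a single peak against input. The windows of MAP2K3 and REPS2, for example, also had a single peak in each list. ZNF90 stands in a cluster of related genes, and of the 20 protein-coding genes nearest to it in the RefSeq order 15 have a ZNF symbol. Only uniquely aligned reads had been counted, and how many reads the related copies removed from or added to this site was not tested.

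The TMF1 site lay on chromosome 3 from 69154892 to 69155304, at the end of NM_007114, a transcript of 17 exons on the minus strand from 69151668 to 69184173. It covered the end of the coding sequence, with 143 bp in the coding part of exon 17, 126 bp in the 3′ UTR and 144 bp in the intron before it. Its summit was 14 bp before the last coding base. TMF1 was the member with the most peaks in both lists, namely the site and 2 others. One of them (69159769 to 69160125) lay 4464 bp from the site within the transcript. It spanned the intron between exons 12 and 13, with 59 bp in exon 12 and 64 bp in exon 13, all coding, and held 13 tags (6.92 to 22.23). The other (69141597 to 69142065) was 9602 bp beyond the 3′ end of the transcript, 12826 bp from the site, and held 16 tags (9.15 to 25.98).

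The neighbouring peaks at TMF1 were weaker than the site in fold enrichment. The peak at exons 12 and 13 had 8.45 with DLD-1/Mock as control and 7.23 with input, and the peak beyond the 3′ end had 6.87 and 6.67. At all 3 TMF1 peaks fold enrichment was higher against DLD-1/Mock. The ratio of the expected background with DLD-1/Mock to that with input was 0.856, 0.969 and 0.971 (exons 12 and 13, specific site, beyond the 3′ end). At the site and at exons 12 and 13, where 8.45 equals 10 tags over the genome-wide background, the DLD-1/Mock term is that genome-wide value. Their scores against input, 50.18 and 50.53 for the neighbours, were just above the P value cut-off of 1e-05, which is a score of 50. The gap of 4464 bp was the third smallest distance to another peak in both lists among the 83 sites with a gene, where the median was 201440 bp. The other members were farther apart from any such peak, at 201440 bp (GATAD2B), 777048 bp (TAF3), 817667 bp (ZNF90) and 2489893 bp (ESRRG).

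**Figure D3:**
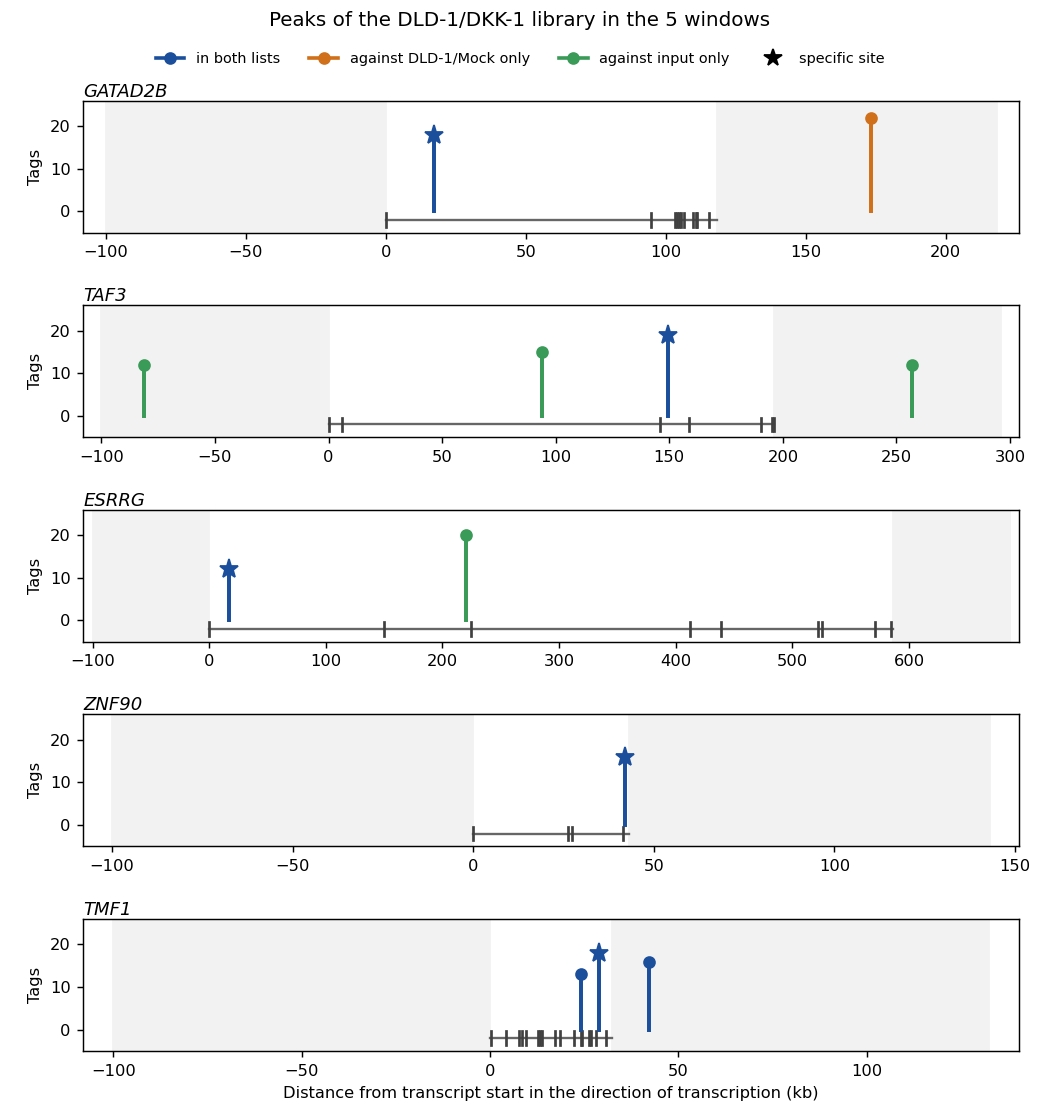
Peaks in the 5 windows by distance of the peak's centre from the transcript start, in kb along the direction of transcription (horizontal axis, with its own range for each gene); the height of a stem is the number of tags, the line below is the transcript with its exons as ticks, grey areas are the 100 kb flanks, stars are specific sites, and colours give the list or lists with the peak. GATAD2B and ESRRG have their site in intron 1, 17.4 and 17.0 kb from the transcript start. The sites of ZNF90 and TMF1 touch the last exon. TMF1 alone has further peaks in both lists.

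The members thus fell into 2 kinds by place. At GATAD2B and ESRRG the site was in intron 1, about 17 kb downstream of the transcript start (17.4 and 17.0 kb), which placed them among the 24.1% of sites with a gene that were in intron 1. At ZNF90 and TMF1 the site touched the last exon, as for 7.23% of sites, and the 3′ UTR, as for 6.02% (5 of 83). The ZNF90 site lay wholly in that exon, whereas the TMF1 site extended into the intron before it. TAF3 belonged to neither kind. Of the 12 peaks, the ESRRG site was the closest to the start of a listed transcript, at 17017 bp. Starts of other transcripts and of neighbouring genes were not examined. In all, 8 of the 12 peaks overlapped a transcript of the members and 3 of them touched an exon. These 8 include the 5 specific sites, which the list had assigned to these genes. Of the peaks beyond the sites, 3 overlapped a transcript and 4 did not. Among all sites with a gene, 20.5% (17 of 83) touched an exon.

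**Figure D4:**
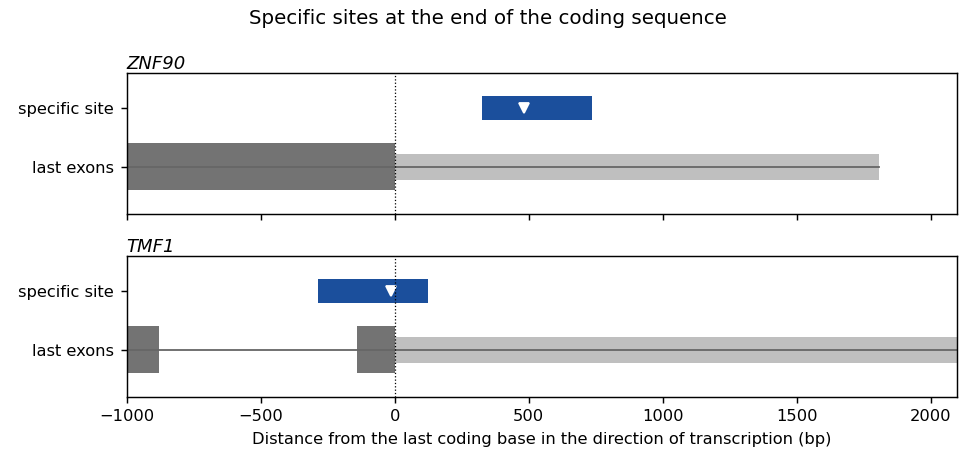
Specific sites of ZNF90 and TMF1 (blue bars, with the summit as a white triangle) above the exons near the end of the coding sequence, by distance in bp from the last coding base along the direction of transcription (horizontal axis); dark boxes are coding parts of exons, light boxes the 3′ UTR and the line the intron. The ZNF90 site begins 324 bp after the last coding base, whereas the TMF1 site spans it with its summit 14 bp before it.

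Over the 5 windows, 8 peaks were called against DLD-1/Mock and 11 against input, and 7 were in both lists. Since 5 of these 7 are the specific sites, the share in both lists (87.5% of the peaks against DLD-1/Mock) follows from the choice of the genes. Without the sites there remained 3 peaks in the DLD-1/Mock comparison, 6 in that with input and 2 in both, and those 2 were the neighbours at TMF1. The single peak against DLD-1/Mock alone was at GATAD2B, and the 4 against input alone were at TAF3 and ESRRG. At GATAD2B, TAF3 and ESRRG every peak other than the site was thus called against 1 control only. Such peaks were common in the windows of the list. Summed over the windows of all 82 genes, 136 were against DLD-1/Mock alone and 72 against input alone. For the 65 other genes outside chromosome 8 these sums were 50 and 32. With so few peaks at the members, nothing is read from their balance.

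A further peak in both lists was present in the windows of 1 of the 5 members, TMF1. Among the windows of all 82 genes, drawn in the same way, 48.8% had one, and 40.0% of those outside chromosome 8, where none of the members lie. At least 2 such peaks, as at TMF1, were present for 30.5% of the genes, or 21.4% outside chromosome 8. TMF1 had 12.9 peaks per Mb against each control (exact Poisson interval 2.66 to 37.7). Chromosome 3 as a whole had 1.20 per Mb against DLD-1/Mock and 1.36 against input, but a window chosen for a peak holds at least that peak. In the order of the 82 windows by peaks in both lists per Mb, TMF1 was at place 13, and the others at place 41 (ZNF90), 53 (GATAD2B), 61 (TAF3) and 80 (ESRRG). With a single peak each in the both-list count, these 4 differ only in the length of their windows. TAF3 had 10.1 peaks per Mb (2.75 to 25.9) against input and 2.53 (0.064 to 14.1) against DLD-1/Mock. The intervals of these values overlap, but both counts include the specific site and rest on the same DLD-1/DKK-1 tags. Their overlap therefore does not compare the controls, and the difference was not tested.

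**Figure D5:**
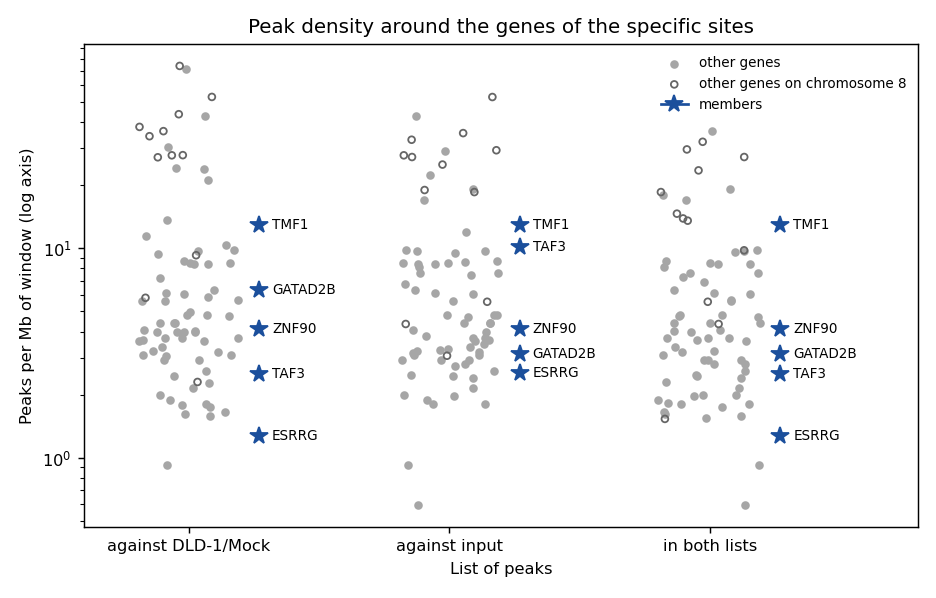
Peaks per Mb (vertical axis, log scale) in the windows of the 82 genes of the specific sites, for either control and for peaks in both lists (horizontal axis); stars are the 5 members, filled circles other genes and open circles other genes on chromosome 8. TMF1 is the highest member in each column (12.9 per Mb), and the members lie within the spread of the other genes.

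A list of 38 related genes held 13 other NuRD subunits, 17 other TFIID subunits, 4 relatives or coactivators of ESRRG and 4 partners of TMF1, and 0 of them were named for any of the sites. Of all protein-coding genes in RefSeq 0.374% (75 of 20052) were named for a site, so that a list of this size would hold hardly any, and nothing is read from the count. Of the 541 with a ZNF or ZFP symbol other than ZNF90, 0.185% were named, which is 1 gene, listed as ZFP106. The lists carry no expression values, so nothing was measured about the activity of the 5 genes.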

How the data were processed

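The 5 genes, the related genes and the alternatives were chosen with earlier results of these data known, and all 5 genes were described. The authors aligned unfiltered 40 bp reads to hg18 with ELANDv2 in CASAVA 1.7, kept unique alignments and called peaks with MACS 1.4.0beta on single libraries. Per the file headers, MACS was run with fragments of 150 bp, kept no more than 2 tags at a position, took local backgrounds over 1000 or 10000 bp and cut at a P value of 1e-05. The tags per peak are counts deposited without normalization, the score is as the authors' caller wrote it, the fold enrichment is a ratio from the deposited lists, and the FDR is a deposited percent. The 200 specific sites were checked here to be exactly the peaks in both lists with a fold of 10 or more in each.

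Windows were intersected in Python 3.11.15 with pandas 2.3.3 and scipy 1.17.1 (at least 1 bp in common), and plots drawn with matplotlib 3.10.9. Transcripts and exons were those of the deposited list. Exact Poisson intervals (95%) cover counting error only. Overlap and annotation functions were tested on simulated data. RefSeq (GRCh38.p14) gave gene order and transcript numbers, and all 5 transcripts were found there by accession. With 1 library per group no test was made. Alternatives were other flanks, stricter peaks and other definitions of a shared peak.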

Additional observations from a re-analysis of the deposited data

How the results depend on the processing

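Counts and ranks within 1.5 times their value in the report were taken as unchanged, shares and peaks per Mb within the 95% interval of that value (Wilson and exact Poisson), and distances within a site's width around its centre. Under a P value cut-off of 1e-10 the 5 windows held 0 peaks in either list, and 0 in both, so none of the member sites passes that cut-off. Requiring 10-fold enrichment kept 5 peaks in the DLD-1/Mock comparison and 6 in that with input, and requiring 15 tags kept 7 in the latter. Leaving out the TMF1 window, an alternative chosen after seeing the data, left 5 against DLD-1/Mock and 4 in both lists. These falls follow from the removal of peaks. Within the transcripts alone, the share of peaks against DLD-1/Mock that were in both lists was 100%, just above the interval of 52.9% to 97.8%. The other 15 of the 24 recomputed counts and shares stayed within the limits, among them those with flanks of 50 or 200 kb, a reciprocal overlap of 50% and summits within 100 bp. The 5 specific sites lie in the windows by choice, and a fall from 7 to 5 peaks in both lists is within the limit. A setting that keeps the sites could therefore not move that count downward. Requiring 10-fold enrichment left only the 5 sites in both lists and still counted as unchanged. These counts thus say little about the peaks beyond the sites. Of the 20 recomputed values of single loci 11 stayed within theirs. Among these were the distances of the 5 sites, recomputed from the summit. They could not leave their limits, since a summit lies within its site. The values that moved were the 5 ranks by tags, which grew with the list from 83 to 200 sites, and the peaks per Mb of the short ZNF90 and TMF1 transcripts. The intervals for peaks per Mb are wide, so that a change from 3.14 to 8.46 against input at GATAD2B and from 2.53 to 5.10 against DLD-1/Mock at TAF3 counted as unchanged. No paired analysis was possible because the groups had 1 library each, so that nothing was tested. The depth, at 12 to 22 tags a peak, limits any ranking of the loci.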

Other observations

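The list of specific sites named 7 further genes with known or proposed roles in transcription or chromatin, picked after their values had been seen. KDM2B, a histone demethylase that binds unmethylated CpG islands, had its site in intron 4, with 16 tags and a fold enrichment of 10.14 against both controls. L3MBTL3 and SFMBT1, which carry MBT repeats that bind methylated histones, had sites in intron 18 (23 tags, 10.14 against both controls) and intron 2 (22 tags, 11.51 against DLD-1/Mock and 12.61 against input). EAF2, a factor of transcription elongation, had 17 tags in intron 4. TCF24 (a helix-loop-helix protein, on chromosome 8), SSBP2 and ZFP106 had 20, 20 and 21 tags. These 7 sites held 16 to 23 tags, and their counting intervals overlap those of the 5 loci of the report.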
